A study of Mus musculus with 40 samples.

Results

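The spindle assembly checkpoint is described here through 8 genes, Ttk, Bub1, Bub1b, Bub3, Mad1l1, Mad2l1, Mad2l1bp and Cdc20, followed across 40 single spermatocytes. They were taken by symbol from a count table of 55492 genes, and all 8 were found. The libraries are 20 cells named Metaphase I and 20 named Pachytene, each from 1 cell of the testis of C57BL/6J mice aged 6-8 weeks. Both groups are spermatocytes prepared by centrifugal elutriation, which separates cells by size. The protocol describes culture with 4 µM okadaic acid, an inhibitor of the phosphatases PP1 and PP2A, for 5 h, to drive pachytene cells to metaphase I. The same protocol is attached to every library, so only the group name says that the Metaphase I cells are those given the drug. Effects of stage, of okadaic acid and of the hours in culture cannot be told apart here, and the labels do not say if Pachytene cells spent time in culture. The labels name no animal or culture. Each group therefore counts as 1 sample of 20 cells, and the groups are compared by their values, with no test and no p.

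The checkpoint holds a dividing cell before anaphase until every chromosome is attached to the spindle. At an unattached kinetochore the kinase TTK (MPS1) phosphorylates the scaffold KNL1, which then binds BUB3 together with BUB1 or BUBR1, the product of Bub1b. A complex of MAD1 and MAD2, the products of Mad1l1 and Mad2l1, then helps MAD2 to close around CDC20. CDC20 held by MAD2, BUBR1 and BUB3 forms the mitotic checkpoint complex, which keeps CDC20 from activating the anaphase-promoting complex. The product of Mad2l1bp, known as p31comet, takes that complex apart together with the ATPase TRIP13. In mouse spermatocytes the checkpoint is known for arresting cells with unpaired chromosomes at metaphase I, the stage at which joined homologous pairs stand on the spindle; at pachytene, earlier in meiosis, homologues are synapsed and no spindle has formed.

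Many genes used in mitosis carry, near their start, the 6 letters TTTGAA or TTCGAA, known as the cell cycle homology region, often with the letters CCAAT, which the factor NF-Y binds. The promoters below run from 100 bases before the RefSeq start to 50 after it, on GRCm38.p6, written 5′ to 3′ on the gene's strand. Ttk, Bub1b, Bub3 and Cdc20 are shown because their levels went together across cells, Bub1 because it did not go with them, and Mad2l1 because it shared with Bub1b the largest ratio between the groups. Capitals mark these 3 runs of letters, and on the opposite strand TTCAAA for TTTGAA and ATTGG for CCAAT.
Ttk (chr9:83834589-83834738, + strand): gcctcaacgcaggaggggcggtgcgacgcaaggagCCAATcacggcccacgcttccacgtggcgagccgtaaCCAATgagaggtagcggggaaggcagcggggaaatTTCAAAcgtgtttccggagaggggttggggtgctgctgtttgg
Bub1b (chr2:118598111-118598260, + strand): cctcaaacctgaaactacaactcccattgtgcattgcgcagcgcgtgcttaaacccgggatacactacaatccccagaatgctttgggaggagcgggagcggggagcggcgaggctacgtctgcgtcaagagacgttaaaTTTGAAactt
Bub3 (chr7:131560270-131560419, + strand): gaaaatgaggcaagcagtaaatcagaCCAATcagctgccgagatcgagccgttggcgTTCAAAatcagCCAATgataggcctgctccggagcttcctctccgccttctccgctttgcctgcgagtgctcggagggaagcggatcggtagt
Cdc20 (chr4:118437294-118437443, - strand): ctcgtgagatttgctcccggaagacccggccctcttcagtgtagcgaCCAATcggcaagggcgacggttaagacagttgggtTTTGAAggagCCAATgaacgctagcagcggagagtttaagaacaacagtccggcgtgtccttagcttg
Bub1 (chr2:127831810-127831959, - strand): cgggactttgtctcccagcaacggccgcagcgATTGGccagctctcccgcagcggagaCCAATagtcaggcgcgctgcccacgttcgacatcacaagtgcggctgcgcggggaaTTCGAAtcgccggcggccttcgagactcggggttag
Mad2l1 (chr6:66535121-66535270, + strand): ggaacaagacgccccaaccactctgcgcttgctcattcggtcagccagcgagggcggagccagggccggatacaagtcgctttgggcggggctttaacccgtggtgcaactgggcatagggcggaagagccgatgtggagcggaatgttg
Positions are counted with 1 as the RefSeq start. In these windows TTTGAA was found in Ttk at positions 8 to 13 on the opposite strand and in Bub1b at 41 to 46. It was found in Bub3 at -43 to -38 on the opposite strand, and in Cdc20 at -18 to -13. Bub1 held TTCGAA, which reads the same on both strands, at 15 to 20. CCAAT stood at 2 places each in Ttk, Bub1, Bub3 and Cdc20, and was not found in Bub1b. The windows of Mad1l1, Mad2l1 and Mad2l1bp held none of these letters on either strand. The RefSeq start is not always that of the count table. The table begins Bub3 at chr7:131560222, before its window, and Mad2l1 at chr6:66535390, after its window. Windows at those starts were not searched. Of 27025 promoters of the same length, 8.10% held TTTGAA, 0.611% TTCGAA, 24.0% CCAAT, and 2.09% either 6-letter run together with CCAAT, a combination found in 4 of the 8 genes. The 2 kinds of motif do not overlap in these windows. A match of letters is a description and shows no binding.

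Library totals ran between 198117 and 1497037 counts in Metaphase I cells, with a median of 540662, and between 165048 and 2325564 in Pachytene cells, with a median of 730979. Levels are given as CPM, the counts per 1000000 counts of the same cell. All 8 spermatocyte markers, among them Sycp3 and Piwil1, had counts in both groups, with summed levels of 10257 to 28682 CPM in Metaphase I cells and 18310 to 32734 CPM in Pachytene cells. Most of these sums was Ldhc and Meig1, at 16870 and 5022 CPM in the summed Metaphase I counts and 17464 and 5790 CPM in the Pachytene counts. Sycp3 and Piwil1 had 178 and 239 CPM in Metaphase I and 132 and 170 CPM in Pachytene. X-linked genes, silenced in pachytene cells, held over 0.3% of counts in 8 libraries, Metaphase I replicates 3, 7, 17 and 19 and Pachytene replicates 2, 3, 7 and 19. All 9 spermatid markers had counts in both groups, with summed levels of 7.35 to 4364 CPM in Metaphase I cells and 0 to 5232 CPM in Pachytene cells. Of 8 Sertoli markers, 6 in Metaphase I cells and 4 in Pachytene cells had a count. Metaphase I replicate 19 had a summed Sertoli level of 13241 CPM, against at most 211 CPM in the other Metaphase I cells and 11.2 CPM in Pachytene cells, and Amh and Rhox5 were at 0 in both groups. Several results are also given without some of these libraries.

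Together the 8 genes held 799 CPM in the summed Metaphase I counts (10957 counts) and 656 CPM in the summed Pachytene counts (11593 counts). The ratio was 1.22-fold (1.19 to 1.25), where intervals here and below are exact, at 95%, and cover counting error only, not the spread between cells or animals. Bub1b and Mad2l1 were over 2-fold higher in Metaphase I sums and none of the 8 was over 2-fold lower. Over all 16174 genes with 20 or more counts, 8.49% were over 2-fold higher and 9.81% over 2-fold lower by the same log2 ratio, which adds 1 CPM to each group. The median log2 ratio was 0.26 over the 8 genes and -0.00 over all measured genes, whose quartiles were -0.40 and 0.38. Both genes stayed over the 2-fold line with other scalings of the totals, but these could hardly move a ratio. With TMM scaling, for example, the factors were 1.005 for Metaphase I and 0.995 for Pachytene. Under the choices below the genes did not both stay over the line. With medians over cells 1 gene, Bub1b, stayed over it, where 3.52% of all measured genes did. None of the 8 did with equal weight per cell (8.24% of all genes), a pseudocount of 10 CPM (0.884%), cells thinned to 340000 counts (7.02%), without the 8 libraries of high X-linked share (6.32%), without the 8 libraries of highest spermatid markers (11.3%), without Pachytene replicate 7 (8.73%) or without Metaphase I replicate 13 (7.54%). In each of these, Bub1b and Mad2l1 kept a higher level in Metaphase I cells.

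**Figure D1:**
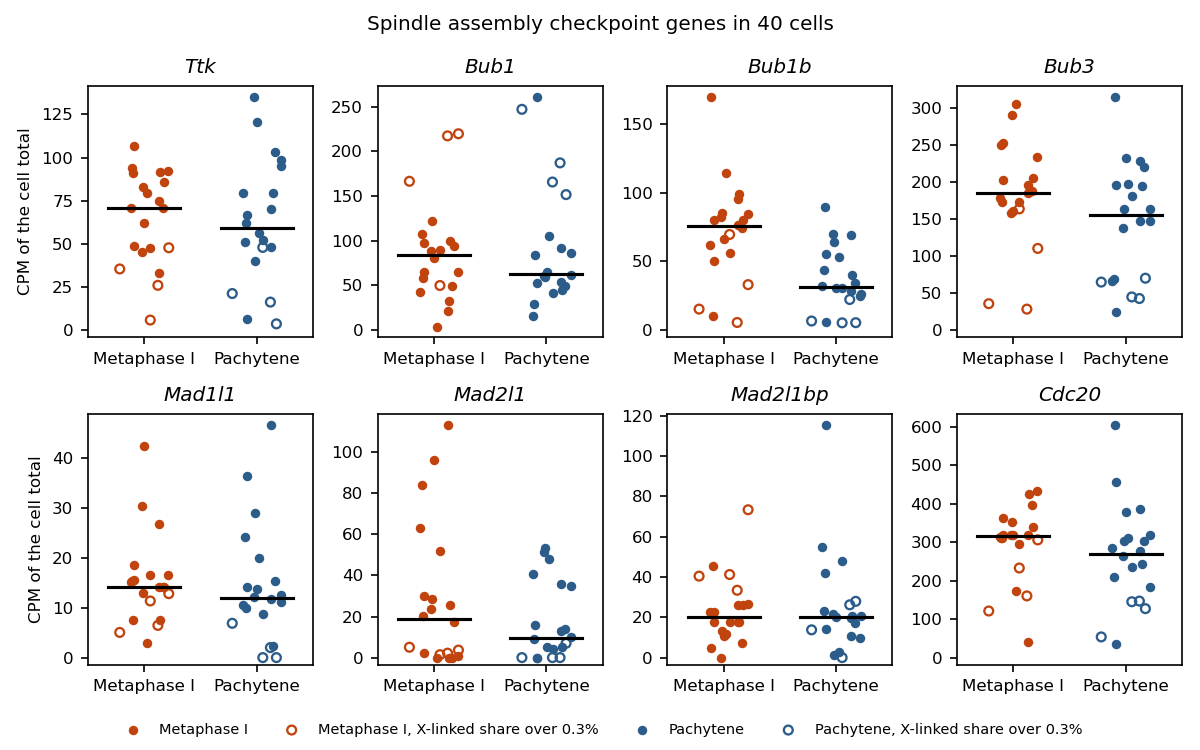
Level of each of the 8 checkpoint genes in every cell, in CPM, Metaphase I left of Pachytene; 1 point is 1 cell, open points have an X-linked share over 0.3%, and the line is the median. The cells of both groups overlap for every gene, and 4 Metaphase I cells lie above all Pachytene cells for Bub1b and likewise 4 for Mad2l1.

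Ttk (chr9:83834689-83872389, + strand, GRCm38, from first to last exon in the deposited table) encodes the kinase that starts the signal. Its level ran from 5.68 CPM in Metaphase I replicate 19 to 106 CPM in replicate 11, with a median of 70.7 CPM, against 3.49 to 135 CPM with a median of 58.9 CPM in Pachytene cells. The ranges overlapped nearly in full, and 12 of 20 Metaphase I cells lay above the Pachytene median. The summed counts, 900 in Metaphase I and 1186 in Pachytene, gave a ratio of 0.978 (0.896 to 1.07), while the ratio was 1.03 with equal weight per cell and 1.20 between medians, so the direction differed between these measures. The summed ratio was 0.922 (0.841 to 1.01) without the 8 libraries of high X-linked share and 0.886 (0.811 to 0.967) without Pachytene replicate 7. It was 0.862 (0.787 to 0.944) without the 8 libraries of highest spermatid markers. All 40 cells had a count of Ttk.

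Bub1 (chr2:127801122-127831865, - strand) encodes a kinase that marks centromeric chromatin for shugoshin and helps to recruit the other checkpoint proteins. It ran from 2.93 CPM in Metaphase I replicate 16 to 220 CPM in replicate 17, with a median of 84.4 CPM, and from 15.9 CPM in Pachytene replicate 4 to 261 CPM in replicate 5, with a median of 63.2 CPM. Every cell had a count, and 13 of 20 Metaphase I cells lay above the Pachytene median. The summed ratio of 0.961 (0.893 to 1.03) did not hold its direction. It was 1.27 (1.17 to 1.37) without Pachytene replicate 7, the deepest library, which alone gave 575 of the 1686 Pachytene counts, and 1.26 (1.14 to 1.38) without the 8 libraries of high X-linked share.

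Bub1b (chr2:118598211-118641591, + strand) encodes BUBR1, the part of the checkpoint complex that blocks the anaphase-promoting complex directly. Its level ran from 5.38 CPM in Metaphase I replicate 3 to 170 CPM in replicate 13, with a median of 75.5 CPM, against 5.13 CPM in Pachytene replicate 19 to 89.6 CPM in replicate 12, with a median of 31.2 CPM. The bulk of the Metaphase I cells stood higher, with 17 of 20 above the Pachytene median and 4 above every Pachytene cell, but the lower ends of the groups met. The summed counts, 1052 in Metaphase I and 629 in Pachytene, gave 2.15-fold (1.95 to 2.38). The ratio was 1.83 (1.65 to 2.04) without Metaphase I replicate 13, 1.92 (1.73 to 2.12) without Pachytene replicate 7, 1.98 (1.78 to 2.19) without the 8 libraries of high X-linked share and 2.42 between medians. The direction held in each of these, but the 2-fold line was crossed or not according to single libraries.

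Bub3 (chr7:131560222-131571895, + strand) encodes the adaptor that carries BUB1 and BUBR1 to the phosphorylated kinetochore. It ran from 28.0 to 305 CPM in Metaphase I cells with a median of 185 CPM, and from 24.2 to 315 CPM in Pachytene cells with a median of 155 CPM. Of the Metaphase I cells 17 lay above the Pachytene median, while neither group passed the other's range by much. The summed ratio was 1.20 (1.14 to 1.27), on 2536 and 2715 counts in Metaphase I and Pachytene. Without the 8 libraries of high X-linked share it was 1.13 (1.07 to 1.20).

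Mad1l1 (chr5:140008689-140321552, - strand) encodes the scaffold that holds MAD2 at unattached kinetochores. It was low in both groups, from 2.93 to 42.5 CPM with a median of 14.1 CPM in Metaphase I cells and from 0 to 46.6 CPM with a median of 11.9 CPM in Pachytene cells. All 20 Metaphase I cells and 18 of 20 Pachytene cells had a count, and Pachytene replicates 2 and 19, at 0, allow up to 5.23 and 5.13 CPM. The summed ratio was 1.36 (1.13 to 1.64) on 237 and 225 counts in Metaphase I and Pachytene, and the mean over cells, each with equal weight, gave 1.07. The summed ratio was 1.25 (1.03 to 1.52) without the 8 libraries of high X-linked share. An antisense gene, Gm16121, shares 37 exon bases with Mad1l1 and had 0 and 4 counts in Metaphase I and Pachytene.

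Mad2l1 (chr6:66535390-66547220, + strand) encodes MAD2, which closes around CDC20. It ran from 0 to 113 CPM with a median of 18.8 CPM in Metaphase I cells, and from 0 to 53.6 CPM with a median of 9.56 CPM in Pachytene cells. The gene was unevenly spread: 3 Metaphase I cells (replicates 6, 9 and 16) and 5 Pachytene cells (replicates 3, 5, 7, 11 and 19) had no count, which allows at most 6.06 to 10.6 CPM in those Metaphase I cells and 1.29 to 18.2 CPM in those Pachytene cells. At the other end, Metaphase I replicates 18, 15 and 13 held 113, 96.4 and 84.2 CPM, above the highest Pachytene cell, replicate 10, as did replicate 4 at 63.1 CPM. Only 11 of 20 Metaphase I cells lay above the Pachytene median. The summed counts of 466 in Metaphase I and 280 in Pachytene gave 2.14-fold (1.84 to 2.50), and the ratio was 1.64 with equal weight per cell. Without the 8 libraries of high X-linked share the summed ratio was 2.01 (1.73 to 2.34), but under 2-fold with 1 CPM added to each group. The log2 ratio of 1.05 was under 1 in 8 of the 40 omissions of a single library. It was 0.997, 0.98, 0.78, 0.80 and 0.97 without Metaphase I replicates 1, 4, 13, 15 and 18, and 0.86, 0.96 and 0.99 without Pachytene replicates 7, 8 and 11.

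Mad2l1bp (chr17:46147387-46153553, - strand) encodes p31comet, which binds closed MAD2 and promotes disassembly. It ran from 0 to 73.3 CPM with a median of 20.1 CPM in Metaphase I cells and from 0 to 115 CPM with a median of 20.3 CPM in Pachytene cells, with 19 of 20 cells in each group at a count above 0. The groups lay over each other, with 10 of 20 Metaphase I cells above the Pachytene median. The summed ratio of 1.12 (0.955 to 1.31), on 298 and 343 counts in Metaphase I and Pachytene, turned to 0.813 (0.673 to 0.981) without the 8 libraries of high X-linked share.

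Cdc20 (chr4:118432901-118437352, - strand) encodes the activator of the anaphase-promoting complex that the checkpoint holds back. It ran from 41.6 CPM in Metaphase I replicate 18 to 432 CPM in replicate 20, with a median of 316 CPM, and from 36.4 to 606 CPM in Pachytene cells with a median of 270 CPM. Here 15 of 20 Metaphase I cells lay above the Pachytene median, and none above the highest Pachytene cell. The summed ratio was 1.20 (1.15 to 1.25) on 4210 and 4529 counts in Metaphase I and Pachytene, and 1.07 (1.03 to 1.12) without the 8 libraries of high X-linked share. Elovl1, on the opposite strand, shares 53 exon bases with Cdc20 and had 16 and 42 counts in Metaphase I and Pachytene.

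**Figure D2:**
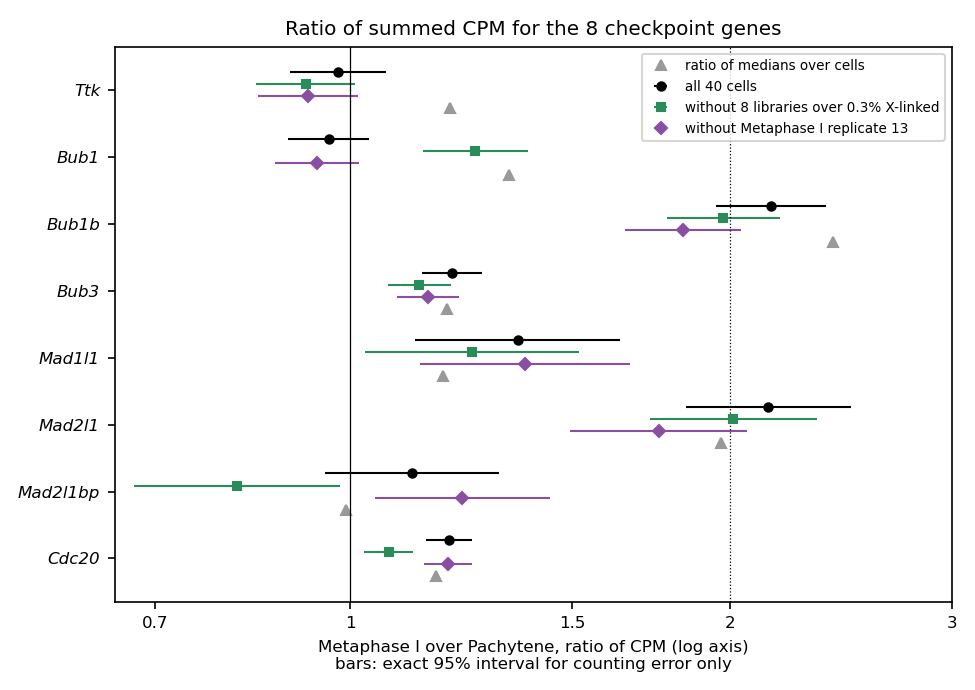
Ratio of summed CPM, Metaphase I over Pachytene, on a log axis for each of the 8 genes, from all cells and under 3 alternatives; error bars are 95% intervals for counting error only and the dotted line marks 2-fold. Bub1b, from 1.83 to 2.42, and Mad2l1, from 1.76 to 2.14, lie on either side of that line, while Ttk, Bub1 and Mad2l1bp have points on both sides of the no-change line at a ratio of 1.

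Levels of different genes were compared as median CPM per kb of exon length. These are 3′-end libraries, in which counts need not grow with length, so the order depends on the division. Cdc20 was highest, at 169 CPM per kb in Metaphase I cells and 145 CPM per kb in Pachytene cells, and its quartile range did not overlap that of Bub3, next at 26.4 CPM per kb in Metaphase I and 22.1 CPM per kb in Pachytene. Bub1, Bub1b, Mad2l1bp and Ttk followed, between 19.4 and 14.4 CPM per kb in Metaphase I cells and between 15.9 and 7.30 CPM per kb in Pachytene cells, with overlapping quartile ranges between neighbours. Bub1b stood above Mad2l1bp and Ttk in Metaphase I cells and below both in Pachytene cells on this scale. By CPM alone, Bub1b stood above Mad2l1bp in both groups, at 75.5 and 20.1 CPM in Metaphase I and 31.2 and 20.3 CPM in Pachytene. For Bub1b against Ttk the change of order held by CPM. The place of Mad2l1bp beside Ttk did not. By CPM the quartile range of Mad2l1bp lay below that of Ttk in both groups, and in Metaphase I its median was next to that of Mad2l1, at 18.8 CPM. Cdc20 and Bub3 were closer by CPM, with medians of 316 and 185 CPM in Metaphase I and 270 and 155 CPM in Pachytene. Their quartile ranges overlapped by CPM in Pachytene cells. Mad1l1, at 3.87 CPM per kb in Metaphase I and 3.27 CPM per kb in Pachytene, and Mad2l1, at 2.24 CPM per kb in Metaphase I and 1.14 CPM per kb in Pachytene, were lowest and overlapped each other.

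Bub1 and Bub1b are related genes whose products both dock on BUB3, and their balance in the summed counts differed between the groups. Bub1b made up 45.5% (43.5 to 47.6) of the summed Bub1 and Bub1b counts in Metaphase I cells and 27.2% (25.4 to 29.0) in Pachytene cells. Without the 8 libraries of high X-linked share the gap was smaller, at 53.0% (50.6 to 55.3) in Metaphase I and 41.7% (39.1 to 44.3) in Pachytene. The median of the share over single cells was 49.1% in Metaphase I and 37.4% in Pachytene. The cells overlapped widely, with quartiles of 37.5 and 59.3% in Metaphase I and 20.2 and 51.8% in Pachytene. The share was over 50% in 9 Metaphase I and 7 Pachytene cells, and without the 8 libraries in 8 and 7 cells of 16 each. Pachytene replicate 7 alone gave 575 of the 1686 Pachytene counts of Bub1. For MAD2 and its antagonist p31comet, Mad2l1 made up 61.0% of the summed Mad2l1 and Mad2l1bp counts in Metaphase I cells and 44.9% in Pachytene cells, while the medians over cells were 35.4% in Metaphase I (n = 20) and 28.6% in Pachytene (n = 19 cells with a count of either gene). Without the 8 libraries of high X-linked share, Mad2l1 made up 70.8% of the summed counts in Metaphase I and 49.5% in Pachytene, and the medians over cells were 58.0% in Metaphase I and 41.3% in Pachytene. These shares were chosen after the values were seen.

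The highest Bub1 levels were found in the libraries with the most spermatid RNA. The 8 cells with most Bub1, at 152 CPM or more where the next cell had 122 CPM, were the same 8 with the highest summed spermatid markers, at 867 CPM or more where the next had 705 CPM. They were Metaphase I replicates 3, 7 and 17, at 217, 167 and 220 CPM of Bub1, and Pachytene replicates 2, 3, 5, 7 and 19, at 152, 187, 261, 247 and 166 CPM. Of these 8 cells, 7 also passed the X-linked share of 0.3%, and the other, Pachytene replicate 5, was the shallowest library. Over all 40 cells the Spearman correlation of Bub1 with the spermatid sum was 0.28. Bub1b was low in the 8 cells, at 5.38, 15.1 and 33.0 CPM in the 3 Metaphase I cells and 5.23, 22.1, 6.06, 6.45 and 5.13 CPM in the 5 Pachytene cells. In the other cells Bub1b ran from 10.1 to 170 CPM in Metaphase I (n = 17) and from 24.7 to 89.6 CPM in Pachytene (n = 15). The 5 Pachytene cells thus lay below every other Pachytene cell. Bub3 was also low, at 28.0, 35.3 and 110 CPM in the 3 Metaphase I cells, against 158 to 305 CPM in the other Metaphase I cells. In the 5 Pachytene cells Bub3 had 69.7, 42.3, 24.2, 64.5 and 44.4 CPM, against 65.4 to 315 CPM in the other Pachytene cells. Without the 8 cells, the summed ratio was 1.28 (1.16 to 1.41) for Bub1 and 1.93 (1.75 to 2.14) for Bub1b. These cells are also the 8 highest in Bub1, and 5 of them are Pachytene, so the Bub1 ratio without them is no independent value. The set of 8 was chosen after the values were seen. Whether these libraries hold RNA of other cells or cells of a later stage was not tested.

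**Figure D3:**
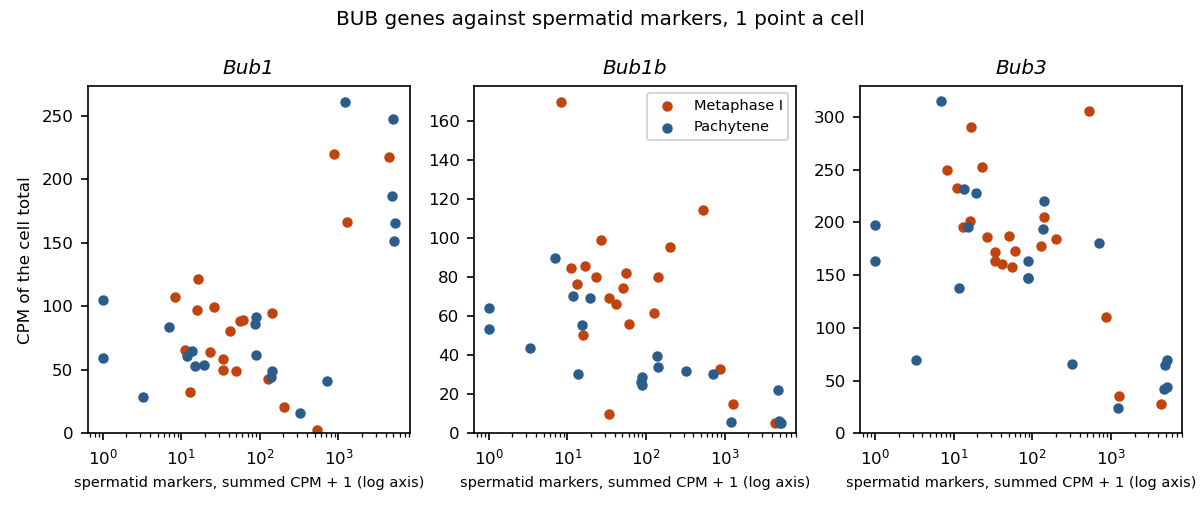
Levels of Bub1, Bub1b and Bub3 in CPM against the summed CPM of the 9 spermatid markers in the same cell (log axis, after adding 1), 1 point a cell, Metaphase I and Pachytene in separate colours. The 8 cells furthest right, 3 Metaphase I and 5 Pachytene, have the highest Bub1 and low Bub1b.

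Across the 40 cells, Ttk, Bub1b, Bub3 and Cdc20 went up and down together. Of the 6 pairs among them, 5 had a Spearman correlation over 0.5, and these were all such pairs among the 28 pairs of the 8 genes. Bub1b with Bub3 had 0.71 across all cells, 0.70 in Metaphase I cells, 0.66 in Pachytene cells and 0.56 without the 8 libraries of high X-linked share. Bub3 with Cdc20 had 0.69, 0.49, 0.84 and 0.54 on the same 4 sets. Ttk with Cdc20 had 0.52 across all cells and 0.19 without the 8 libraries, and the 6 pairs then ran from 0.01 to 0.56. Bub1 with Bub1b had -0.35 across all cells and 0.07 without those libraries. All these cells share their totals as the divisor, and they are not independent samples, so the values are descriptions. With the library total itself the 8 genes had correlations between -0.31 and 0.21.

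**Figure D4:**
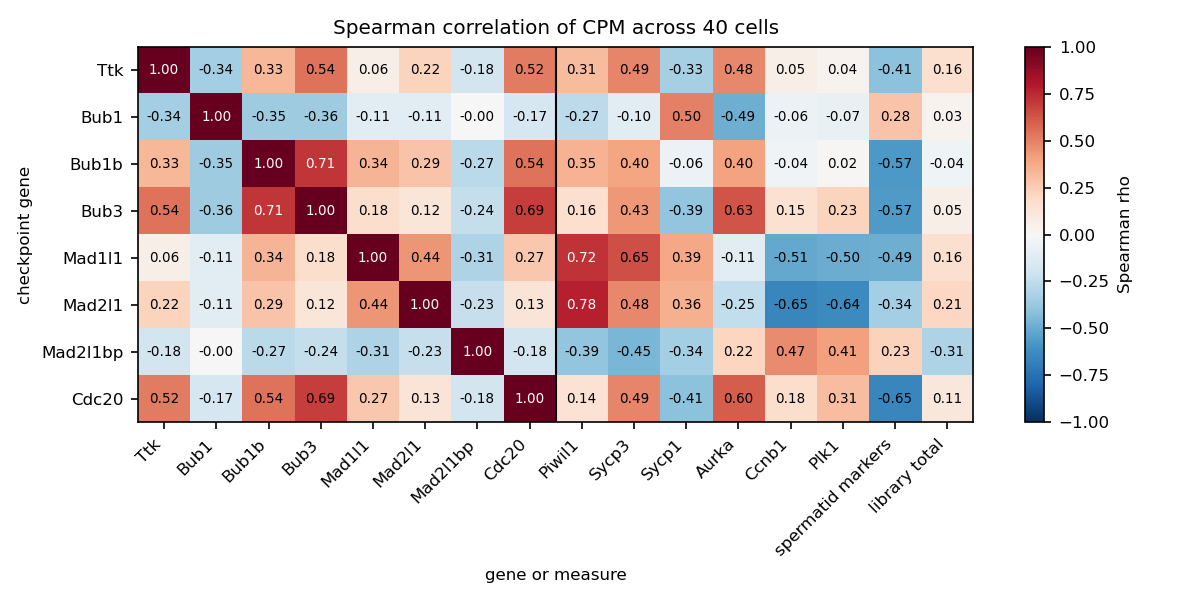
Spearman correlation across the 40 cells between the 8 checkpoint genes, and between each of them and stage genes, the spermatid marker sum and the library total; the colour scale runs from -1 to 1. Bub1b, Bub3, Cdc20 and Ttk form a positive block, and Mad2l1 and Mad1l1 are positive with Piwil1 and negative with Ccnb1 and Plk1.

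Mad2l1 and Mad1l1 followed a different course across cells, and one that was present inside both groups for Piwil1, Ccnb1 and Plk1. Mad2l1 had a correlation of 0.78 with Piwil1, a piRNA-binding protein abundant at pachytene, and it was 0.78 in Metaphase I cells, 0.77 in Pachytene cells and 0.74 without the 8 libraries. With Ccnb1, cyclin B1, which drives entry into the division, Mad2l1 had -0.65 across all cells, -0.68 in Metaphase I cells and -0.68 in Pachytene cells. With Plk1, a mitotic kinase, it had -0.64, -0.73 and -0.60 on the same sets. The groups differed for the kinase gene Aurka, with which Mad2l1 had -0.56 in Metaphase I cells and -0.01 in Pachytene cells. Over all cells this value was -0.25, but -0.69 without the 8 libraries of high X-linked share, so it depended on those libraries. The groups also differed for the synaptonemal complex gene Sycp1, at 0.64 in Metaphase I cells and 0.12 in Pachytene cells. For Sycp1 the value was 0.36 over all cells and 0.54 without the 8 libraries. The 11 cells with over 30 CPM of Mad2l1, 5 Metaphase I and 6 Pachytene, had 4.01 to 68.4 CPM of Ccnb1. Among the 24 cells with more Ccnb1 than that, Mad2l1 reached at most 25.5 CPM. Not every cell of low Ccnb1 and high Piwil1 passed 30 CPM of Mad2l1. Metaphase I replicate 14 had 3.92 CPM of Ccnb1, 456 CPM of Piwil1 and 23.5 CPM of Mad2l1. Pachytene replicate 13 had 13.8, 311 and 9.22 CPM of the same genes. The Metaphase I cells above every Pachytene cell for Mad2l1, replicates 18, 15, 13 and 4, had 68.4, 7.96, 4.01 and 22.7 CPM of Ccnb1. The Metaphase I median of Ccnb1 was 245 CPM. For Bub1b such cells were mixed, with 4.01, 329, 420 and 68.4 CPM of Ccnb1 in replicates 13, 16, 8 and 18. Metaphase I replicate 18, with 113 CPM of Mad2l1, had 1357 CPM of Piwil1 and 68.4 CPM of Ccnb1, while Metaphase I replicate 6, with no Mad2l1 count, had 77.8 CPM of Piwil1 and 505 CPM of Ccnb1. Replicate 18 is an unusual library, and its Mad2l1 level rests on 38 counts. It had the lowest spermatocyte marker sum of all cells, 10257 CPM against a Metaphase I median of 25959 CPM, and 211 CPM of Sertoli markers. The markers in that sum did not all go down. Ldhc, at 5453 CPM against a median of 18410 CPM, and Hspa2, at 286 CPM, were the lowest of the Metaphase I cells. Piwil1 was the highest of them, and Sycp1 had 419 CPM against a Metaphase I median of 121 CPM. Mad1l1 was alike, with 0.72 for Piwil1, 0.65 for the synaptonemal complex gene Sycp3 and -0.51 for Ccnb1, while its correlation with Mad2l1 itself was 0.44. With Aurka, Mad1l1 had -0.44 in Metaphase I cells and 0.15 in Pachytene cells. Over all cells Mad1l1 had -0.11 with Aurka, but -0.65 without the 8 libraries of high X-linked share. Mad2l1bp ran the other way, at 0.47 with Ccnb1. The 30 CPM line was chosen after the values were seen.

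**Figure D5:**
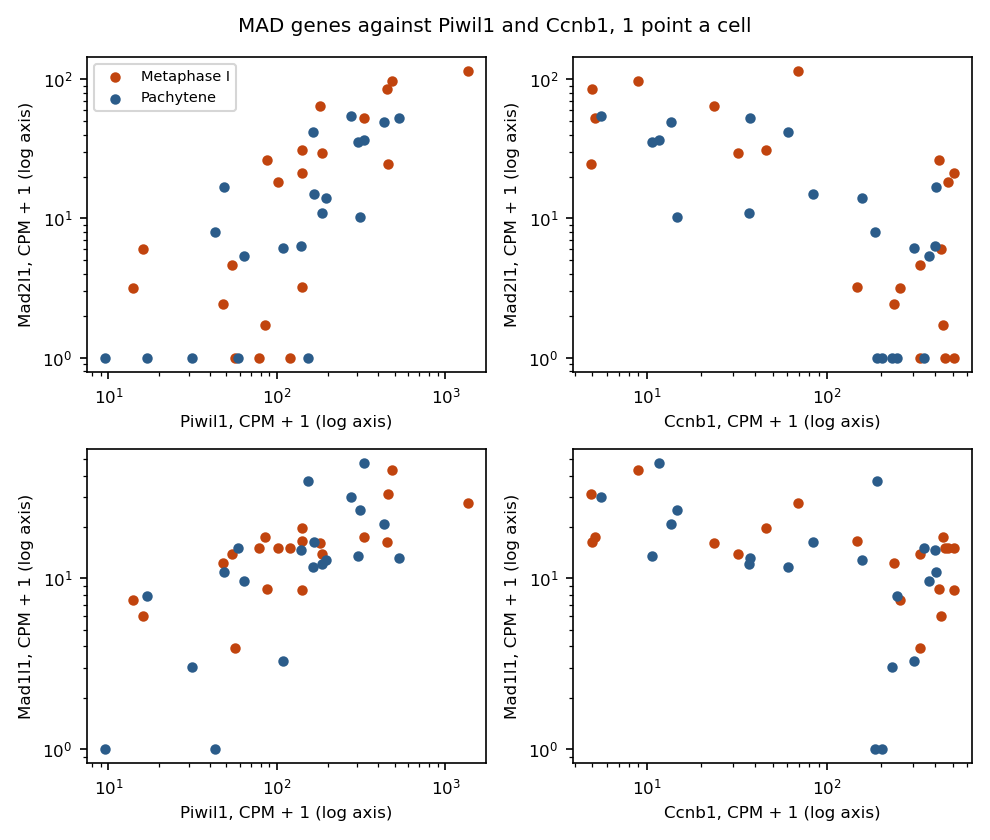
Levels of Mad2l1 (top) and Mad1l1 (bottom) against Piwil1 (left) and Ccnb1 (right) in the same cell, as CPM + 1 on log axes, 1 point a cell, Metaphase I and Pachytene in separate colours. Cells of both groups spread over both ends of each axis. Mad2l1 tends to be higher where Piwil1 is high and Ccnb1 is low, with exceptions such as Pachytene replicate 13, at 9.22 CPM of Mad2l1.

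Ccnb1 and Plk1 themselves, with a correlation of 0.92 across the cells, spread widely in both groups. Ccnb1 ran from 3.92 to 505 CPM with a median of 245 CPM in Metaphase I cells, and from 4.59 to 404 CPM with a median of 170 CPM in Pachytene cells, with a summed ratio of 1.20. Of the 20 Metaphase I cells, 7 lay above the highest Pachytene cell for Ccnb1 and 3 below the lowest. Plk1 had medians of 168 CPM in Metaphase I and 104 CPM in Pachytene, with a summed ratio of 1.18, and 2 Metaphase I cells lay above the highest Pachytene cell and 1 below the lowest. Aurka, the spindle pole kinase, had medians of 453 CPM in Metaphase I and 268 CPM in Pachytene and a summed ratio of 1.03. Each group thus held cells with many and cells with few of these transcripts.

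Of 30 genes that work with the checkpoint, all measured, 1 was over 2-fold higher in Metaphase I sums and none over 2-fold lower, where 8.49% and 9.81% of all measured genes were. The median log2 ratio over the 30 was 0.20. It was 0.22 over the 10 genes of the kinetochore platform and 0.40 over the 4 genes of the ROD, ZW10 and Zwilch complex and Spindly. It was 0.20 over 9 kinases and their partners, and -0.02 over 7 genes listed under silencing and disassembly. These 7, not all of them genes of silencing or disassembly, were Trip13, Anapc15, Usp44, Ube2c, Tpr, Cdc26 and Fzr1. The 1 gene over 2-fold higher was Trip13, the ATPase that works with p31comet, with 145 counts in Metaphase I and 76 in Pachytene, a ratio of 2.46 (1.85 to 3.29). A single cell, Metaphase I replicate 13, gave 40% of its Metaphase I counts, and the ratio was 1.66 (1.20 to 2.28) without it. Without Pachytene replicate 7 the ratio of Trip13 was 2.13 (1.61 to 2.86). Its log2 ratio, with 1 CPM added to each group, was then 0.96, under the 2-fold line. Zwint, a binding partner of KNL1, had 1.77 (1.59 to 1.98), but Metaphase I replicate 19, the library with Sertoli markers, gave 32.5% of its Metaphase I counts, and the ratio was 1.26 (1.12 to 1.42) without that library. Without the 8 libraries of high X-linked share the ratio of Zwint was 1.08 (0.956 to 1.22), an interval that includes 1. Pmf1, a subunit of the MIS12 complex, had 1.71 (1.48 to 1.98) and Tpr, the nuclear pore protein that binds MAD1 and MAD2, had 1.67 (1.58 to 1.77). Without Metaphase I replicate 13 these became 1.34 and 1.32.

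The summed CPM of the 8 genes per cell was set mainly by Cdc20, which held 38.4% of their counts in Metaphase I and 39.1% in Pachytene and had a correlation of 0.89 with the sum, against -0.04 for Bub1. Among 9588 genes, the 10 whose levels across the 40 cells were most like that sum were Crybg3 at 0.76, Fyttd1 at 0.75, Hsp90b1 at 0.72, Tmem138 at 0.71, Erh at 0.70, and Urgcp, Rbm44, Dpf2, Dtymk and Spata5, each at 0.69. The median of this measure over the 9588 genes was 0.15, and the range from the 5th to the 95th percentile was -0.42 to 0.48. Without the 8 libraries of high X-linked share the 10 genes ran from 0.52 to 0.66.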

How the data were processed

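Per the labels' protocols, cDNA of single cells was made by a modified STRT-seq method with cell barcodes on the oligo(dT) primer, amplified by PCR, and its 3′ ends were sequenced. Per the submitters' processing notes, the tools were UMI-tools, STAR and featureCounts and the build GRCm38. The authors deposited whole-number counts for each gene in each of the 40 cells. It is not stated if reads or molecules were counted, nor with which strand setting, so genes that overlap on opposite strands cannot be told apart. Each pair of libraries within a group was compared over 11047 genes by a chi-square per degree of freedom, which was 2.69 or more, so none was counted as a copy.

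Counts of a group were summed and divided by the summed total, as CPM. The log2 ratio used a pseudocount of 1 CPM. A gene was measured where its counts over both groups reached 20. Sums have exact Poisson intervals, ratios conditional binomial ones and shares Clopper-Pearson ones, at 95%, and are too narrow if the counts are reads. A count of 0 was read as at most 3 counts. The code was tested on simulated counts. Python 3.11.15, scipy 1.17.1 and, for TMM scaling, edgeR 4.0.16 were used. Named partner genes are the 4 with the largest absolute log2 ratio of 4 lists, with Aurka, Ccnb1 and Plk1. The 10 like genes have the highest Spearman correlation among genes with 100 or more counts and a count in at least 50% of cells. The 8 genes and the lists were chosen with earlier results of these data known. Promoters of all 8 genes were matched by symbol in RefSeq, at the most upstream start. Doublets were not called. Alternatives were equal weight per cell, medians, other scalings, a pseudocount of 10 CPM, thinning to 340000 counts, and omission of libraries; the sets left out for spermatid markers, the shares of paired genes and some correlation sets were chosen after seeing the data.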

Additional observations from a re-analysis of the deposited data

How the results depend on the processing

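The median log2 ratio of the 8 genes, 0.26, was 0.12 with equal weight per cell and 0.18 with cells thinned to 340000 counts, and ran from 0.21 to 0.33 when single libraries were left out. The 2 checkpoint genes over 2-fold higher became 1 with medians over cells and 0 with equal weight per cell, a pseudocount of 10 CPM, thinned cells, without the libraries of high X-linked share and without the 8 libraries of highest spermatid markers. Over the 40 single omissions the count ran from 0 to 2, and was 0 on leaving out either Pachytene replicate 7 or Metaphase I replicate 13. The partner genes over 2-fold higher, 1, became 0 with equal weight, medians, a pseudocount of 10 CPM, thinned cells and without the libraries of highest spermatid markers, and ran from 0 to 3 over single omissions, with 0 on leaving out either Pachytene replicate 7 or Metaphase I replicate 13 and 3 without Pachytene replicate 16. Of the 8 genes, 5 kept their rank by median over all 40 cells when CPM was divided by length, and 4 did within Metaphase I cells and 4 within Pachytene cells. The median correlation between the 8 genes, 0.09, was 0.02 in Metaphase I cells alone, 0.20 in Pachytene cells alone and 0.01 without the libraries of high X-linked share. The cause of these shifts was not tested. No paired analysis was possible because the result comes from no test and the shared replicate numbers only name cells. Depth limits Mad1l1, Mad2l1 and Mad2l1bp most, since their medians rest on few counts per cell.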
